A study of Mus musculus with 8 samples.

Results

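N6-methyladenosine (m6A) peaks around the stop codon were taken from a single list of 10160 peaks that the authors deposited for 2 m6A immunoprecipitates and 2 inputs of cultured mouse bone marrow mesenchymal stem cells (MSCs). A peak was counted here when its summit lay on the coding transcript with the longest coding sequence (CDS) of its gene and within 200 nt of the stop codon along the mature transcript, on mm9 with GENCODE vM1. Of 8392 summits placed on such a transcript, 2567 met this rule, which is 30.6% (95% Wilson interval 29.6 to 31.6), and they fell on 2555 genes. MeRIP-Seq fragments polyadenylated RNA, pulls down fragments with an antibody against m6A and sequences them beside the input. The same series holds RNA-seq of 2 libraries labelled WT, which are Mettl3fl/fl in the study's own description, and 2 labelled cKO, which are Prx1-cre;Mettl3fl/fl, in which Cre driven by Prx1 acts in early limb mesenchyme. The cells of all 8 samples came from C57BL/6 mice and had spent 2 days in osteogenic medium. The MeRIP samples carry no genotype other than wild type. Because 4 samples gave 1 list, no peak has a replicate error, the depth of the MeRIP libraries is unknown, and the intervals on shares of peaks or genes cover counting error only.

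In the cell, m6A is written on mRNA by a complex whose catalytic subunit is Mettl3, which acts with Mettl14 and Wtap on adenosines in a short sequence that most often reads GGAC. The mark gathers in long internal exons and around the stop codon, and proteins of the YTH family that bind it affect the decay and translation of the mRNA. Exon junction complexes, which are left on mRNA just upstream of splice junctions, are known to keep the mark away from their surroundings, so that long last exons are favoured.

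The sequences below show what lies under the summits that the results turn on. Each is a stretch of the mature GENCODE vM1 transcript (mm9), 5′ to 3′, around the GGAC nearest to the summit, or, where no GGAC lay within 50 nt, around the nearest of the 18 five-base sequences that the writer is known to accept (A, G or T, then A or G, then AC, then A, C or T). The capitals mark that motif. The first set holds Pth1r, the receptor for parathyroid hormone, and the genes whose peaks had the highest −log10 q, except Krt17 and Hist2h3c1. The second set, from Crtc3 on, holds the member with the highest −log10 q in several lists of genes that act in bone and marrow stroma. The first members of some lists not shown, such as Cebpa, Fzd1 and Cbll1, had no GGAC within 50 nt of the summit. A match is a description of the letters and not a mapped methylated base.
Pth1r, chr9:110624847-110624876, minus strand, CDS: tgacagttcccaaGGACgacggcttcctta
Lor, chr3:91884462-91884491, minus strand, CDS: cagtctgccaccAGACCcagcagaagcagg
Pik3ca, chr3:32361752-32361781, plus strand, from inside the stop codon into the 3′UTR: gagatgggagctgGGACtgcgagctggctc
Tagap, chr17:8126803-8126832, plus strand, CDS: gtgactgagcactGGACacacagtcagact
Cdk13, chr13:17810037-17810066, minus strand, CDS: gatgcacaactaTAACTatggtggtaactt
Igf1r, chr7:75371134-75371163, plus strand, CDS: tgaaagacactcaGGACacaaggctgagaa
Plk2, chr13:111190534-111190563, plus strand, 3′UTR: tgttagagaagtcGGACaggtggtggtacg
Crtc3, chr7:87734693-87734722, minus strand, CDS: cttgagcctcgatGGACtcaacatgctaag
Twist1, chr12:34644051-34644080, plus strand, 3′UTR: agaaggagaaaatGGACagtctagagactc
Runx3, chr4:134731707-134731736, plus strand, CDS: cgccgggccgcatGGACgaggccgtgtggc
Ier5, chr1:156945767-156945796, minus strand, CDS: gtctagcttctcgGGACtcctacggaaaag

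These stretches lay on both sides of the stop codon. In Pth1r the GGAC was 50 nt upstream of the summit and 101 nt upstream of the stop codon. In Runx3, a transcription factor of cartilage and lymphoid cells, the summit was 8 nt past the first base of the stop codon and the GGAC 23 nt before it. In Twist1 the GGAC was 74 nt downstream of the stop codon and 49 nt upstream of the summit.

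The peaks were centred slightly upstream of the stop codon. Of the summits, 1464 (57.0%, 55.1 to 58.9) lay in CDS before the stop codon, 18 lay on its 3 bases and 1085 (42.3%, 40.4 to 44.2) lay in the 3′UTR. The median summit was at −22 nt, with quartiles at −101 and 58 nt. In bins of 25 nt the largest number of summits, 224, fell in the last 25 nt of CDS and the next largest, 218, in the bin that begins with the stop codon. The number then declined to 89 in the last bin of the 3′UTR side, while 141 summits remained in the farthest bin on the CDS side. The peak interval covered the whole stop codon in 1955 members (76.2%).

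**Figure D1:**
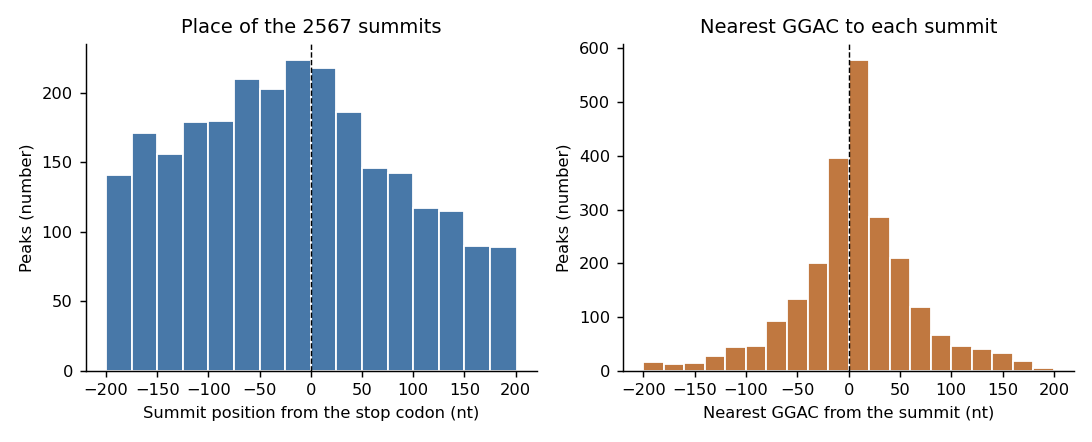
The left panel gives the number of summits in bins of 25 nt by their distance from the first base of the stop codon along the mature transcript (negative is upstream), and the right panel gives the number of peaks in bins of 20 nt by the distance of the nearest GGAC from the summit (positive is downstream). Summits were most frequent from −25 to −1 nt with 224 peaks, and the nearest GGAC was most often 0 to 19 nt downstream of the summit, in 579 peaks.

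The limit of 200 nt did not fall at a gap in the summits. On the CDS side several summits shared the position −200 nt, of which Etv3 and Mpeg1 had the highest −log10 q, and Hist2h3b and Vcpip1 were among those just outside, at −201 nt. On the 3′UTR side Fam160b2 at 200 nt and Dusp7 at 199 nt were inside, and Tab1 and Slc37a2, both at 201 nt, were outside. The fold was 3.34 in Etv3, 2.39 in Mpeg1, 3.53 in Fam160b2 and 3.05 in Dusp7, and among the other members at −200 nt it ran from 2.0 in Dock4 to 8.36 in Gm347. The named summits outside had folds of 2.5 to 10.8, so the ranges overlapped.

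The members of spliced genes lay almost entirely in the last exon. Of 2459 members on transcripts with 2 or more exons, 2420 (98.4%, 97.8 to 98.8) had their summit in the last exon, against 1382 of 4013 summits elsewhere in CDS (34.4%), a difference of 64.0 percentage points (Newcombe interval 62.4 to 65.5). Part of this follows from the window, since 89.6% of all positions within 200 nt of the stop codon of these transcripts, and 92.1% of the GGAC there, were also in the last exon. The other 39 members lay almost all in the exon before the last, 36 of them. In the last exon, 132 members (5.45%, 4.62 to 6.43) had a summit within 50 nt of the last splice junction, where 7.93% of the last-exon window positions and 7.21% of their GGAC lay. The median summit was 208 nt past the last junction.

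Where the stop codon sat in the last exon went with where the summit fell. Among expressed genes, which here are coding genes with a mean of at least 1 TPM (a level per transcript length that sums to the same total in every library) in the WT libraries, 8.01% (6.56 to 9.74) had a member when the stop codon was less than 50 nt past the last junction. The share was 11.2% at 50 to 99 nt, 19.6% at 100 to 199 nt and 32.3% (30.2 to 34.4) from 200 nt to under 400 nt. It did not rise further, with 31.9% from 400 nt to under 800 nt and 24.9% from 800 nt. With the stop codon less than 50 nt past the junction, 76 of 90 summits (84.4%, 75.6 to 90.5) lay downstream of it, although 62.2% of the GGAC in the same windows did. From 400 nt to under 800 nt, 57 of 291 summits (19.6%, 15.4 to 24.5) lay downstream, and 39.2% of the GGAC, and from 800 nt 25.5% of summits and 41.6% of the GGAC did. Summits thus moved further toward the 3′ side than the motif did when the junction was close, and further toward the CDS side when it was far.

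**Figure D2:**
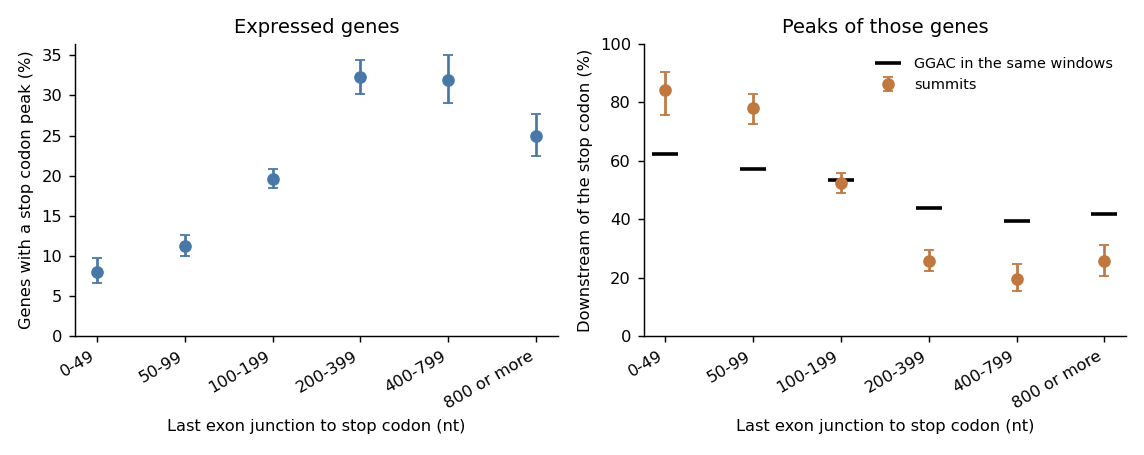
Both panels group expressed genes by the distance in nt from the last exon junction to the stop codon. The left panel gives the percentage of genes with a stop codon peak, which was 8.01% in the nearest group and 32.3% from 200 nt to under 400 nt, and the right panel the percentage of their summits downstream of the stop codon (points) beside the percentage of GGAC in the same windows that is downstream (black dashes), with summits falling from 84.4% to 19.6% from 400 nt to under 800 nt; bars are 95% Wilson intervals.

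The members had a slightly lower median fold and a higher median pileup than other peaks on transcripts. Their fold enrichment, the ratio of the pileup at the summit to the local background as the peak caller gives it, had a median of 3.60 (quartiles 2.74 and 4.92), against 3.84 for summits elsewhere in CDS and 3.92 elsewhere in the 3′UTR. The median pileup, which counts overlapping fragments at the summit, was 73 against 64 and 65, and the median −log10 q was 14.9 against 14.7 and 15.2. The median input level, which is the local background recovered as described below, was also higher, 19.3 against 16.0 and 16.0 fragments. Members in CDS and in the 3′UTR had median folds of 3.57 and 3.65. The quartiles of these groups overlapped widely. In the bins of 25 nt the median fold ranged from 3.23, at −50 to −26 nt, to 4.06, at −175 to −151 nt.

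GGAC was frequent under the summits. It lay within 50 nt of the summit in 1666 of 2567 members (64.9%, 63.0 to 66.7), in 62.6% of summits elsewhere in CDS and in 61.0% elsewhere in the 3′UTR. The difference from CDS was 2.29 percentage points with an interval that spans 0 (−0.0824 to 4.64), and the difference from the 3′UTR was 3.88 (0.587 to 7.20). At the same distances from the stop codon in 6844 expressed transcripts without any placed peak, GGAC lay within 50 nt of 35.5% of positions. Members in the 3′UTR held it more often than members in CDS, 67.3% against 63.1%, while in the transcripts without a peak the order was the opposite, 31.2% against 38.6%. The nearest GGAC was at a median absolute distance of 30 nt, and 49 members had none within 400 nt.

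Among all 1024 sequences of 5 bases, searched on the transcript strand within 50 nt of the summit, GGACT stood first. It was found in 28.9% of members and at 11.5% of the same offsets in transcripts without a peak. The next, AGGAC, differed by 15.1 percentage points, GACTG by 14.4, GGACA by 13.9 and TGGAC by 13.4, and each overlaps GGAC or GGACT. At the other end TTTTA stood last, in 3.12% of members against 11.7%, and ATTTT just before it, in 4.44% against 12.9%. Within coding sequence the 1264 GGAC near a summit were read more often with GAC as a codon, which encodes aspartate, in 65.0% (62.3 to 67.5) against 58.8% of the coding GGAC in the last 200 nt of CDS of expressed genes without a peak. The difference was 6.15 percentage points (3.23 to 8.99).

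The expressed genes with a peak around the stop codon were 2412 of 11959 (20.2%, 19.5 to 20.9). The share rose with the number of GGAC within 200 nt of the stop codon, from 7.85% (6.82 to 9.02) of 2306 genes with none to 52.7% (46.4 to 59.0) of 239 genes with 6 or more. Among genes at 10 TPM or above the same counts gave 9.12% and 52.6%. The share also moved with expression, from 10.8% at 1 to 2 TPM to 24.7% at 10 to 20 TPM, and down to 14.6% at 500 TPM or more. Over the same range the median pileup of the members rose from 25 to 168 and their median fold fell from 5.76 to 2.01, so that pileup and fold cannot be read without the level of the gene.

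**Figure D3:**
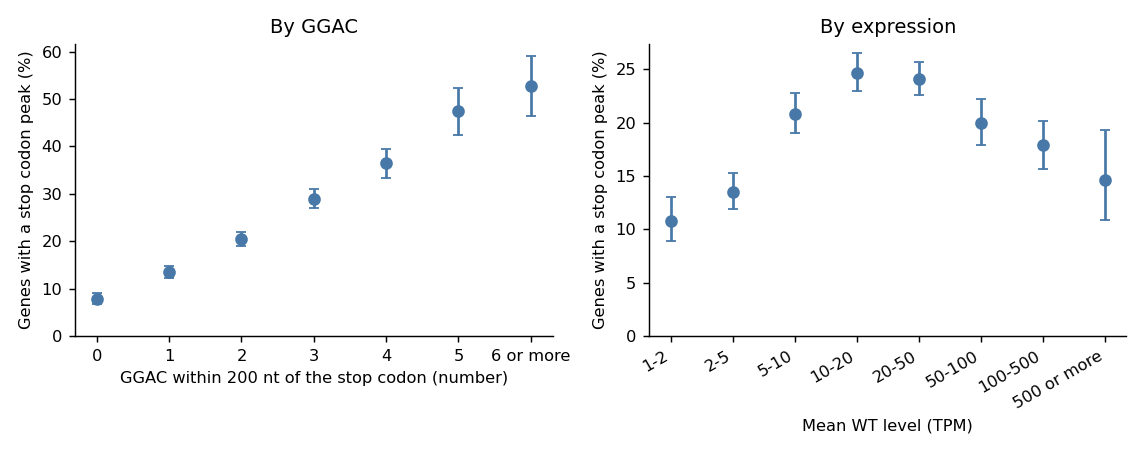
Percentage of expressed genes with a stop codon peak, on the left by the number of GGAC within 200 nt of the stop codon and on the right by the mean WT level in TPM, with 95% Wilson intervals. The share climbed from 7.85% to 52.7% with the number of GGAC, and over expression it was highest, at 24.7%, between 10 and 20 TPM.

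Member genes had longer last exons, longer 3′UTRs and more G and C around the stop codon. The median last exon was 1720 nt in the 2412 expressed member genes and 1050 nt in the 9547 expressed genes without a member, the median 3′UTR 1310 against 775 nt, and the median GC content 52.9% against 49.6%. Genes whose peaks all lay outside the window came close in exon length (1650 nt) but not in GGAC, which 78.7% of them held in the window against 92.5% of member genes. The stop codon itself was TGA in 54.4% of member genes and 50.4% of the others, a difference of 4.02 percentage points (1.79 to 6.24), and TAA in 21.9% against 26.5%, a difference of −4.58 points (−6.42 to −2.67). TAG did not separate them, with a difference of 0.557 points (−1.30 to 2.48). The quartiles of the lengths overlapped.

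The peaks were spread unevenly over lists of genes with shared roles. Of the 20.2% of all expressed genes with a member as background, Immediate early factors, which are transcription factors switched on within minutes of a stimulus, had 11 of 24 (45.8%, 27.9 to 64.9). The PTH receptor to PKA pathway had 11 of 29 (37.9%, 22.7 to 56.0) and chromatin regulators 16 of 47 (34.0%, 22.2 to 48.3). Stromal markers had 6 of 13. At the low end cytosolic ribosomal proteins had 4 of 74 (5.41%, 2.12 to 13.1), and no oxidative phosphorylation gene of 73 had a member, where the interval reaches 5.0%. The intervals of the Notch, BMP and TGF-beta, Wnt, matrix and adipogenic lists, on shares between 26.8% and 36.8%, all include the background. Zfp genes, with 55 of 267 (20.6%), stood at the background. GGAC near the stop codon was present in 63.5% of the ribosomal protein genes and 79.5% of the oxidative phosphorylation genes, against 77.7% of all expressed genes without a member. It was present in 91.7% of the immediate early, 93.1% of the PTH and 80.9% of the chromatin genes. The median WT level was 1350 TPM in the ribosomal and 220 TPM in the oxidative phosphorylation list. Of all expressed genes, 14.6% had a member at 500 TPM or more and 17.9% at 100 to 500 TPM. The part of motif and level in the shares of the lists was not tested.

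**Figure D4:**
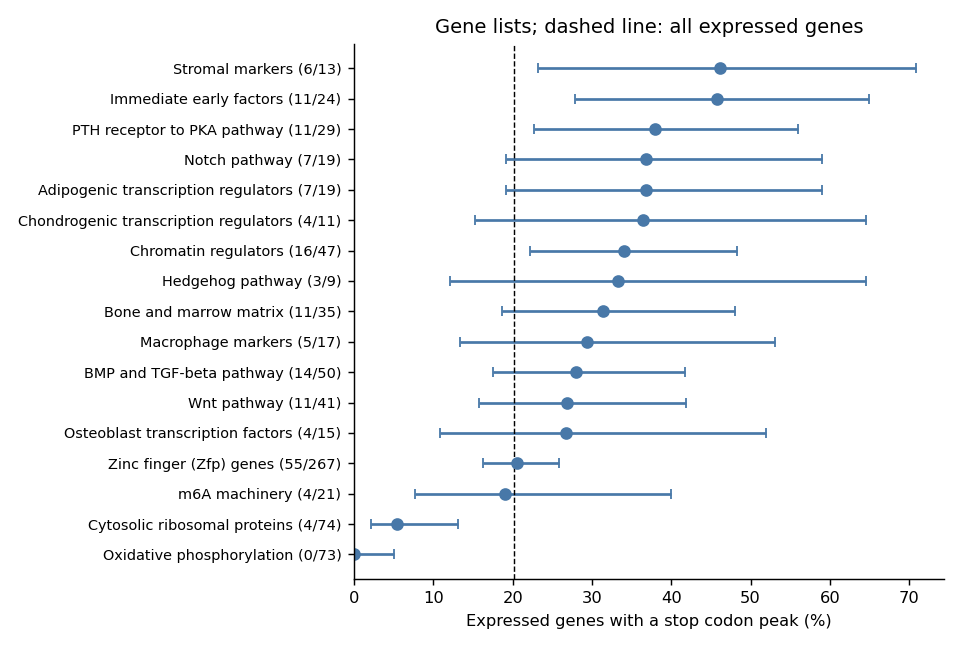
Percentage of expressed genes with a stop codon peak in each list with at least 5 expressed genes, with the number of genes in brackets and 95% Wilson intervals; the dashed line marks the 20.2% of all expressed genes. Cytosolic ribosomal proteins (5.41%) and oxidative phosphorylation genes (0 of 73) lay below it and the immediate early and PTH lists above it.

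In the PTH pathway the members included the receptor and several parts of its cyclic AMP arm. The Pth1r peak, chr9:110624713-110625158, lay in the last of 14 exons on the minus strand, covered the stop codon (TGA) and had its summit 51 nt upstream of it, with 6 GGAC in the window. Its pileup was 93 and its fold 2.56, which ranked 2093 of the 2567 members, and its −log10 q of 12.0 ranked 1602. Crtc3, a coactivator of the transcription factor CREB, carried the peak with the highest −log10 q of the list, 50.0, with a fold of 5.69 and a pileup of 130 at −66 nt. Adcy6, an adenylyl cyclase, followed with a fold of 4.08 at 71 nt in the 3′UTR. The remaining members were Pde4b, Ep300, Pde4a, Akap13, Adcy7, Crtc1, Prkar2a and Creb1, with folds of 2.47, in Creb1, to 5.77, in Pde4b, whose summit was at the limit of −200 nt. Gnas, Prkaca and Prkar1a were among the 18 expressed genes of the list without a member.

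Several regulators of skeletal and fat lineages had a peak, with folds and pileups that differed among them. Twist1, a factor that holds back osteoblast maturation, had a fold of 5.56 and a pileup of 75 at 123 nt, and Dlx3, a homeobox factor of bone and skin, a fold of 7.81 and a pileup of 24 at 155 nt. Cebpa, which drives fat cell differentiation, had a pileup of 250 and a fold of 2.80 at −143 nt. Its relative Cebpb carried 2 members, at −171 and 194 nt, with folds of 2.77 and 4.69. Runx2 and Sp7, the factors that commit cells to the osteoblast lineage, and Pparg, the main regulator of fat cells, had no member. A gene without a member can hold a peak elsewhere. In the osteoblast and adipogenic lists, 4 and 4 genes had a placed peak only outside the window.

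In the signalling lists the members named here were receptors, a ligand and a regulator of SMAD proteins. Fzd1, a Wnt receptor, had a fold of 4.0 at 102 nt and Ror2, a coreceptor for noncanonical Wnt, 4.15 at −131 nt. Skil, which restrains SMAD signalling, had a fold of 4.39 at −145 nt, and Acvr1, a BMP receptor, 4.48 at 188 nt. Jag1, a Notch ligand, had 5.95 at −184 nt, and Smo and Gpr161, which act in Hedgehog signalling, had 2.94 and 6.80. Col1a1 and Col3a1, which encode the fibrillar collagens of bone and stroma, had folds of 3.11 and 3.24 with pileups of 199 and 127. All of these summits were within 50 nt of a GGAC except those of Fzd1, where the nearest was 128 nt away, Acvr1 (133 nt) and Col3a1 (120 nt). Of the m6A machinery, Cbll1, Alkbh5, Ythdc1 and Zc3h13 had a member, and Mettl3, Mettl14, Wtap and Fto did not. In that list 9 genes had a placed peak only outside the window.

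The peaks with the highest −log10 q were on genes of different kinds. Lor headed the list with a −log10 q of 98.7, a pileup of 71 and a fold of 38.3, followed by Pik3ca, a catalytic subunit of phosphoinositide 3-kinase, with 82.5, 114 and 13.2. Igf1r, the receptor for insulin-like growth factor 1, had a fold of 8.26 at −160 nt, Plk2, a kinase of the cell cycle and stress responses, 9.16 at 92 nt, and Cdk13, which phosphorylates RNA polymerase II, 9.33 at −154 nt. By fold among members of at least the median pileup, Tagap (16.3), Pik3ca, Tagap1 (11.5), Tnfrsf13b (10.1) and Ccdc72 (10.0) came first. Tagap and Tagap1 are close copies, and so are the histone genes to which Hist2h3c1 (9.81) belongs, so the fragments may not be assigned to 1 copy with certainty. In Ccdc72 the summit lay in exon 2 of 4.

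The strongest member lay on a gene that the RNA-seq hardly detected. Lor encodes loricrin, a protein of the cornified layer of skin, and was listed at 0.03 and 0.06 TPM in the WT and at 0.11 and 0.14 TPM in the cKO libraries. Krt17, a keratin of hair follicles and stressed skin, ranked 3 by −log10 q (67.5, pileup 47, fold 31.0) and was listed at 0 in all 4 libraries. In all, 34 members lay on genes under 0.1 TPM in both WT libraries, of 2548 with a gene in the expression table (1.33%), and 12 of the 34 were on keratin, loricrin, cornified envelope or keratin-associated genes, a group chosen after its values were seen. They included Krt15 (pileup 43), Krt77 (33), Krt5 (27), Krt1 (20), Krt14 (18) and Lce1m (18). None of the 13 such members reached 0.5 TPM in a WT library, Krt80 being the highest at 0.38. The group was matched by gene symbol, so genes outside these families, such as Calm4 (pileup 25) and Ly6d (12), were not counted in it. Most of the other members under 0.1 TPM had pileups of 5 to 15. The part that other cells in the immunoprecipitates had in these peaks was not tested.

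The peak list also gives a view of the local background against which each summit was called. The default of MACS2 is a fold of the pileup plus 1 over the local background plus 1. If it was used, that background can be recovered in fragments, and it is called the input level here. It describes the surroundings of the summit as the peak caller took them, and need not equal the input at the summit itself. Of the 10160 peaks, 241 then share a lowest value of 0.339, the uniform background. Across 2536 member genes the input level and the TPM had a Spearman correlation of 0.771 for WT and 0.790 for cKO, as a description of genes that share the same libraries. The median input level of members rose from 3.47 at 1 to 2 TPM to 86.4 at 500 TPM or more. For the Lor peak it was 0.881 and for the Krt17 peak 0.551, near the lowest value, so that the input around these summits was low as well. Pth1r stood at 35.8, above the quartiles of 11 and 24.8 for its class of 10 to 20 TPM.

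In the RNA-seq, where libraries held 23978099 to 34106693 counts, Mettl3 itself did not separate the groups. It stood at 17.6 and 16.9 CPM (counts scaled to the library total) in WT and 17.5 and 16.3 CPM in cKO (log2 fold change −0.03 ± 0.0929 SE, edgeR adjusted p = 0.824), a value per gene that does not show whether part of the gene was deleted, so the cKO libraries below are those labelled cKO. Macrophage genes were abundant in every library: Lyz2 stood at 11000 to 15900 and Csf1r at 1330 to 1470 CPM. The 17 macrophage markers summed to 29400 and 33700 TPM in the WT libraries, and the 14 stromal markers to 1400 and 1350 TPM. Such sums depend on the genes listed and do not give shares of cells. The 36 genes of the bone and marrow matrix list summed to 19100 and 28200 TPM in the same libraries. The 8 endothelial markers summed to 4.87 and 5.25 TPM in the WT libraries, of which Vwf made up a mean of 3.66 TPM, and Cdh5 was at most 0.414 CPM. Fewer cells of a type and less RNA per cell cannot be told apart in such bulk samples. Stromal genes moved with the group in both directions. Thy1 stood at 3.93 and 1.91 CPM in WT and 74.7 and 69.4 CPM in cKO, and Prrx1, which marks limb mesenchyme, at 146 and 134 CPM in WT and 288 and 289 CPM in cKO. Cxcl12, a chemokine of marrow stroma, stood at 347 and 250 CPM in WT and at 189 and 191 CPM in cKO (−0.65 ± 0.145, adjusted p = 0.0184). Ptprc, which marks leukocytes, stood at 191 and 200 CPM in WT and at 264 and 260 CPM in cKO (0.42 ± 0.0591, adjusted p = 0.00333). Other macrophage markers did not all follow it in the same edgeR test. Cd68 (0.07, adjusted p = 0.71), Csf1r (0.01, adjusted p = 0.927) and Lyz2 (0.22, adjusted p = 0.342) were not called, while C1qb was higher (0.29, adjusted p = 0.0108). The part of the cell mixture in the results below was not tested. Over genes, the chi-square of the counts was 32.6 times its expectation between the WT libraries and 1.82 times between the cKO libraries, so the pairs differed unequally. No source states that the libraries came from separate cultures or animals, so the p-values measure the spread between these samples only.

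Member genes were more often higher than lower in the libraries labelled cKO. Of 2489 tested, 567 (22.8%) were higher and 340 (13.7%) lower at an adjusted p under 0.05 in edgeR's quasi-likelihood test, beside 13.7% higher and 16.8% lower of all 15327 genes tested. Their median log2 fold change was 0.0755, against −0.00378 over all genes. Genes with a peak elsewhere in CDS and no member gave 24.4% and 12.2%, and genes with a peak elsewhere in the 3′UTR and no member 25.1% and 14.1%, and these values lay on the same side of the background. Expressed genes without any placed peak gave 8.82% and 23.5%. Without WT replicate 1 the counts were 1050 higher and 621 lower, without WT replicate 2 they were 990 and 570, without cKO replicate 1 they were 168 and 164, and without cKO replicate 2 they were 157 and 168, which followed the number of calls over all genes. Without cKO replicate 1 member genes gave 6.74% higher and 6.58% lower, beside 4.62% and 7.34% of all genes, and without cKO replicate 2 they gave 6.3% and 6.74%, beside 4.58% and 7.23%. Without WT replicate 1 they gave 42.1% and 24.9%, beside 27.1% and 28.6%, and without WT replicate 2 they gave 39.7% and 22.9%, beside 24.1% and 25.9%, while the median of member genes stayed between 0.0693 and 0.0849.

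The balance of calls moved with the number of further peaks on the gene. Member genes without a further placed peak gave 18.1% higher and 14.9% lower, with a median log2 fold change of 0.0275, while the 105 tested with 3 or more further peaks gave 50.5% and 9.52%, with a median of 0.285. The median WT level of these sets was similar, 19.1 and 15.9 TPM. Neither the side of the summit nor its fold gave such a gradient. Upstream and downstream summits gave 21.9% and 24.1% higher, and in 4 equal groups from the lowest to the highest fold the share was 21.6%, 24.1%, 24.8% and 20.7%. The median WT level of these 4 groups fell from 45.7 to 24.1, 14.2 and 7.42 TPM, so fold and level cannot be told apart here. By level, member genes at 1 to 2 TPM gave 28.7% higher and 12.8% lower, and those at 100 to 500 TPM 13.7% and 25.4%. Genes with a placed peak outside the window only moved alike, with 26.5% and 12.2% at 1 to 2 TPM and 15.9% and 29.6% at 100 to 500 TPM. Genes without any placed peak gave 9.18% and 24.2% at 1 to 2 TPM and 7.54% and 37.4% at 100 to 500 TPM.

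**Figure D5:**
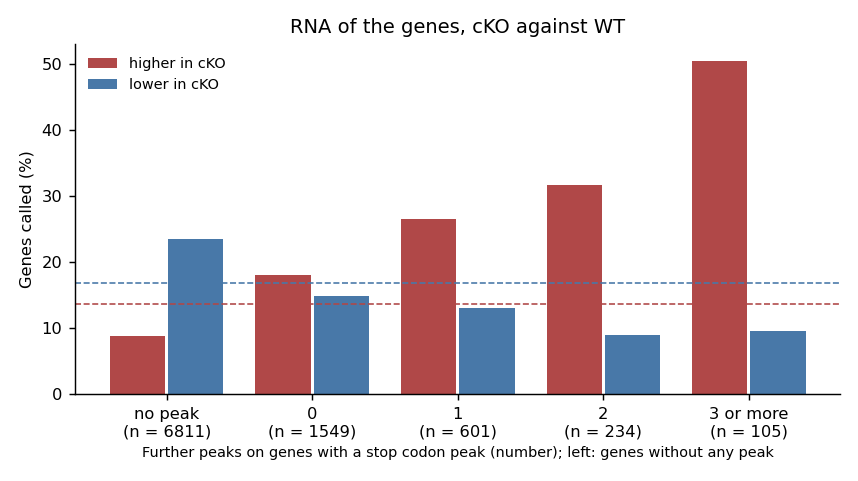
Percentage of tested genes higher (red) or lower (blue) in the libraries labelled cKO at an adjusted p under 0.05, for genes without any peak and for genes with a stop codon peak by the number of further peaks on the transcript; dashed lines are all genes tested (13.7% and 16.8%). The share higher was 18.1% with no further peak and 50.5% with 3 or more.

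Among the lists, the member genes of the BMP and TGF-beta pathway and of the immediate early factors fell more often than they rose. Of 15 BMP and TGF-beta members tested, 10 were lower and 3 higher (median log2 fold change −0.432), among them Skil at 103 and 112 CPM in WT and 69.4 and 68.5 CPM in cKO (−0.64 ± 0.0686, adjusted p = 0.00119). Of 11 immediate early members 6 were lower and 2 higher (median −0.556), Jun being higher, from 221 and 237 to 305 and 322 CPM (0.45 ± 0.0665, adjusted p = 0.00398, and 0.0769 without cKO replicate 2). Zfp genes went the other way, with 22 of 57 members higher and 2 lower (median 0.275), and so did chromatin regulators, with 7 of 16 higher and none lower (median 0.244). In the PTH pathway 6 of 11 members were higher and 2 lower. The background for these counts is the 13.7% higher and 16.8% lower of all genes.

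Pth1r stood at 14.2 and 16.9 CPM in WT and 15.9 and 15.1 CPM in cKO, so the groups overlapped in CPM (log2 fold change −0.00 ± 0.116, adjusted p = 0.983). In the deposited TPM it was at 11.1 and 13.6 in WT and 16.4 and 14.9 in cKO, without overlap. On log2(TPM + 0.1), limma gave 0.34 for Pth1r (adjusted p = 0.128), so it was not called on either scale. Twist1 was at 12.6 and 15.9 CPM in WT and 35.9 and 41.2 CPM in cKO (1.44 ± 0.135, adjusted p = 0.00071). Jag1 rose from 36.1 and 35.2 to 82.0 and 84.7 CPM (1.23 ± 0.0634, adjusted p = 6.66e-05). Both were thus higher in each cKO library than in either WT library. Igf1r fell from 60.5 and 57.3 to 19.1 and 19.8 CPM (−1.60 ± 0.0749, adjusted p = 4.53e-05), and Col1a1 from 1900 and 1920 to 1220 and 1260 CPM (−0.62 ± 0.0554, adjusted p = 0.000584). Cebpa rose, with a log2 fold change of 0.65, and Fzd1 and Plk2 fell, with −0.73 and −0.57. The groups did not overlap in any of these.

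Most of the member genes that changed most had a low pileup or a pileup unlike that of other members at their WT level. Kcne4, a potassium channel subunit, fell the most, from 158 and 148 CPM to 1.94 and 1.73 CPM (−6.39 ± 0.098, adjusted p = 1.61e-06), and its peak had a pileup of 13 and an input level of 1.65, where members at 50 to 100 TPM had a median pileup of 110 and a median input level of 39.1. Col2a1, the collagen of cartilage, fell from 2400 and 2200 to 47.9 and 51.5 CPM (−5.53 ± 0.0868, adjusted p = 1.61e-06), with a pileup of 51 and an input level of 14.9, against medians of 168 and 86.4 at 500 TPM or more. The falls of Rab11fip4, Rgs8 and Epcam were of genes with at most 6.0 CPM in WT. Rgs8 had 38 and 26 counts in WT and 1 in each cKO library, a ratio of 0.0353 (exact interval 0.00418 to 0.133), and Epcam 16 and 23 counts against 0 and 1, a ratio of 0.0289 (0.000715 to 0.171). These intervals cover counting error only and leave out the larger spread between the WT libraries. In the deposited TPM, Rgs8 was at 0.27 and 0.21 in WT and 0.01 and 0.11 in cKO, and limma on log2(TPM + 0.1) gave −1.16 (adjusted p = 0.106), so its call was lost on that scale.

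Among the rises, Cldn1, a tight junction protein, went from 1.27 and 0.743 to 33.5 and 34.6 CPM (5.05 ± 0.186, adjusted p = 1.8e-05), with a pileup of 7. Il21r, the receptor for interleukin 21, went from 0.739 and 0.637 to 6.64 and 6.40 CPM (3.23 ± 0.209, adjusted p = 0.000159). Its peak had a pileup of 138 and an input level of 29.7 although the WT libraries held 0.46 and 0.40 TPM, a level below that of the 1 to 2 TPM class whose members had a median pileup of 25. Tnxb, Shroom2 and Tnfrsf19 rose by 3.22, 3.01 and 2.82 on the log2 scale, with pileups of 7, 11 and 45. On log2(TPM + 0.1), limma gave 1.63 for Shroom2, whose call was lost without a filter on low values (adjusted p = 0.0539), and 2.73 for Tnxb and 2.12 for Tnfrsf19. Whether the MeRIP samples and the WT libraries came from the same cultures is not given in the sources used here, and its part in these values was not tested.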

How the data were processed

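For MeRIP-Seq the authors deposited 1 peak list in the layout of MACS2, with the pileup signal at the summit, the fold enrichment as a ratio to the local background, and a −log10 q-value. The submitters' processing notes name HISAT2 2.0.4, TopHat and MACS2 without saying what each did, and pooling of the 4 samples is not given in the sources used here. For RNA-seq the authors deposited estimated counts per gene and normalized values headed FPKM  whose sum is the same in each library, so they were used as TPM. The way reads were counted and the use of strand are not given in the sources used here.

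Summits were placed on mm9 with GENCODE vM1, with the first base of the stop codon as 0. Of 8419 summits on a transcript used, 27 on transcripts without an annotated stop codon were left out, and 86 on transcripts of more than 1 gene went to the gene with most counts. Of the members, 190 lay inside a gene of the opposite strand. Sequences are those of the GENCODE vM1 transcripts. Gene identifiers matched the expression table for 20551 of 21824 coding genes. Estimated counts were rounded, passed through filterByExpr, and scaled with TMM factors. The test was edgeR's quasi-likelihood test (version 4.0.16, two-sided), adjusted by Benjamini-Hochberg over 15327 genes. The 89 entries without a gene name held 0.110% to 0.125% of counts and were left out. With 2 libraries against 2, an exact permutation test cannot give p below 0.333, so single genes rest on edgeR. The placement and the test were tested on simulated data or known positions. Alternatives used limma 3.58.1 and DESeq2 1.42.0. Shares have Wilson and differences Newcombe intervals.

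The members and lists were chosen with earlier results of these data known. Genes named are Pth1r, the 8 with the highest −log10 q, the 5 with the highest fold at or above the median pileup, the 2 strongest of each list, the 5 largest rises and falls among member genes that were called, did not overlap between groups and reached 10 counts in both libraries of either group, and the summits next to the limit. A gene that this rule names is not reported here. Others are list members or the skin genes, chosen after their values were seen.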

Additional observations from a re-analysis of the deposited data

How the results depend on the processing

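The share of placed summits within the window, the share upstream, the share in the last exon, the share with GGAC and the median fold were 30.6%, 57.0%, 98.4%, 64.9% and 3.60. A window of 100 nt gave 18%, 54.0%, 99.3% and a fold of 3.48, and 400 nt gave 43.5%, 95.5% in the last exon and a fold of 3.75. The midpoint of the peak gave 29.5% and GGAC in 59.5%, peaks with a −log10 q of at least 10 gave GGAC in 68.0% and a fold of 3.85, 1 peak a gene gave 37.1% and 3.77, and leaving out genes under 1 TPM in either WT library, an alternative chosen after seeing the data, gave a fold of 3.51. GGAC within 25 nt was found in 44.2%, within 100 nt in 83.0%, and any of the 18 five-base sequences within 50 nt in 97.2% of members. Expressed genes with a member were 20.2%, and 17.4% from 0.1 TPM, 22.4% from 10 TPM, 12.0% with 100 nt, 27.6% with 400 nt and 14.7% with a −log10 q of at least 10. The other alternatives for these results, among them leaving out summits inside a gene of the opposite strand (added after seeing the data), stayed within the intervals.

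Of the member genes, 567 were higher and 340 lower. With the replicate block there were 599 and 357. The deviations of WT replicate 1 and cKO replicate 1 from their group means had a correlation of 0.0276. Since the cKO libraries differed little beyond counting error (1.82 times its expectation), this value cannot show whether the numbers pair the samples. Lower genes numbered 182 (7.31%, beside 9.41% of all genes) with limma on log2(TPM + 0.1) and 178 (7.15%, beside 9.23%) on log2(TPM + 1). Limma without a filter on low values gave 228 higher (9.04%, beside 3.8%) and 117 lower (4.64%, beside 3.68%). The share lower thus passed that of all genes, as it did in edgeR without a filter (15.7%, beside 13.4%) and in DESeq2 (11.3%, beside 8.4%). In these 2 fits the share higher was 27.6%, beside 11.6%, and 18.3%, beside 7.08%. Leaving out each library in turn gave 157 to 1050 higher and 164 to 621 lower, while the share called of all genes ran from 4.58% to 27.1% higher and from 7.23% to 28.6% lower. The window of 100 nt gave 307 and 197, and genes with no peak elsewhere gave 280 higher. The cause was not tested, except that the smaller windows and gene sets hold fewer genes. Of 52 named genes tested, 34 were called, but these include the largest rises and falls, which were named from called genes only. The share called was 36.4% of member genes and 30.5% of all genes tested. Of the 34, 18 (Adcy6, C1qb, Cbll1, Ccdc72, Cdk13, Chd7, Col3a1, Crtc3, Dlx3, Igf1r, Jun, Pdgfra, Rgs8, Ror2, Shroom2, Smo, Tagap and Zfp746) lost the call in at least 1 alternative. Sfpi1, not called at 0.02, was called at −0.07 without WT replicate 1 and at 0.12 without WT replicate 2. On the limma scales the median over all genes moved to 0.0965, 0.0778 and 0.0641, with member genes at 0.178, 0.167 and 0.174.

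The unknown depth of the MeRIP samples and the single list limit every statement on peaks, and an absent peak is not a measured absence of m6A.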
